A study of Mus musculus with 5 samples.

Results

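Synaptotagmins are membrane proteins of vesicles and other organelles that carry a pair of C2 domains in their cytoplasmic part. The 4 family members described here, Syt2, Syt3, Syt5 and Syt11, are those named by 1 probe each on arrays of mouse cerebellum RNA, and were taken by gene symbol from the 787 probes with a single symbol among 897 probes in all, which together name 773 genes. The arrays followed whole cerebellum at embryonic day 18 (E18) and on days 7, 14, 21 and 56 after birth (P7 to P56), with 1 column of values for each age and no treatment or genotype named. The labels describe a column as a mean over 2 array experiments; strain, sex and whether separate animals were used are not given in the sources read. No spread between replicates can therefore be set beside a difference, no p-value is given, and precision is limited by how few arrays there are. The other 13 synaptotagmin genes looked for by symbol matched 0 of the single-symbol probes and were not analysed here.

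In many synaptotagmins the C2 domains bind calcium and acidic lipids, and this couples calcium entry at a nerve terminal to fusion of the vesicle through the SNARE proteins. Syt2 is a fast calcium sensor for transmitter release and the close relative of Syt1 that dominates at many synapses of the hindbrain and spinal cord, including inhibitory terminals in the cerebellum. Syt5 is a calcium-binding form found on synaptic and dense-core vesicles, and its name has been exchanged with that of Syt9 in part of the literature; the probe here is annotated to mouse gene 53420, which RefSeq calls Syt5, and whether it also detects other synaptotagmins could not be checked without the probe's sequence. Syt3 binds calcium with high affinity and acts mainly at the plasma membrane, where it has been linked to removal of AMPA receptors. Syt11 lacks residues needed for calcium binding, sits on Golgi-derived and endolysosomal membranes and restrains endocytosis.

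The region just before the transcription start was looked at for Syt2 and Syt3, whose probes both rose between P7 and P14, and for Syt11, whose probe had another course. The sequences are from RefSeq (build GRCm38.p6), whose promoter table held starts for 3 of the 4 genes, 2 of them for Syt2; the Syt2 start shown is the one farther downstream. Each is the 250 bases before the start, written 5′ to 3′, with capitals marking the GC box GGGCGG or its complement CCGCCC, the motif of Sp family factors.
Syt2, chr1:134709050-134709299, plus strand: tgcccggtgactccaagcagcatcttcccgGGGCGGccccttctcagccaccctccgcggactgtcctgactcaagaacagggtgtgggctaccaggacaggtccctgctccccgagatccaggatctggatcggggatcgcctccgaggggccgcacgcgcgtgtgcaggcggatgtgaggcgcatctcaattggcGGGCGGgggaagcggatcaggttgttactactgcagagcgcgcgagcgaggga
Syt3, chr7:44383876-44384125, plus strand: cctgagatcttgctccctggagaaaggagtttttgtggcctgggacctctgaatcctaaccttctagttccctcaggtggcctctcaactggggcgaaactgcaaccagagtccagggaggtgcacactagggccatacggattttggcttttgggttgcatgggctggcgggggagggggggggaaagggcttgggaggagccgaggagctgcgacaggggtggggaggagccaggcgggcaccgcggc
Syt11, chr3:88772600-88772849, minus strand: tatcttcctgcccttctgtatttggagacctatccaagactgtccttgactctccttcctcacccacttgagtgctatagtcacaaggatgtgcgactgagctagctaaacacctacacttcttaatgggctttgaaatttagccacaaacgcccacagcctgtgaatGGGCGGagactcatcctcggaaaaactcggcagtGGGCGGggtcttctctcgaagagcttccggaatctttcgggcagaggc
The Syt2 stretch held 22 CpG dinucleotides and 2 GC boxes, and the stretch before its upstream start held 30 and 3. That of Syt11 had 9 CpG dinucleotides and 2 GC boxes, and that of Syt3 had 8 CpG dinucleotides and 0 GC boxes. Over all 32851 starts in the table the median was 6 CpG dinucleotides per 250 bases, and 32.7% held at least 1 GC box on either strand. The TATA box TATAAA, searched on both strands and present in 12.4% of windows, had no match before any of the 4 starts. The palindromic cAMP response element TGACGTCA, present in 1.55%, had none either. Such matches describe letters only, and Syt2 and Syt3, which rose together, differed in both counts.

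Values are read as percentages: within each of the 2 experiments a probe's highest age counts as 100%, and both experiments are then averaged. A value of Syt2 can therefore be compared with other ages of Syt2 but not with the level of Syt5, and which of the 4 transcripts was most abundant at any age cannot be told from these values. In whole tissue, fewer cells of a type and less RNA per cell also cannot be told apart. The words rose and fell are kept for differences of 2-fold or more, with values under 1% set to 1%; no member was under 1% at any age. On the reading above, an experiment behind a mean can be bounded, since neither can lie outside 0 to 100%. Where 2 means differ by over 50 points, the direction must then have been the same in both.

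Over development the value of Syt5 fell while those of Syt2 and Syt3 rose, and Syt11 ended near where it began. Between E18 and P56 Syt2 rose 33.6-fold and Syt3 2.40-fold, Syt5 fell 13.5-fold, and Syt11 stood at 68.8% and 73.1%. Thus 2 of the 4 members rose, where 22.6% of all 897 probes did, and 1 of the 4 fell, where 52.5% did. That background depends on the scale between columns: 203 probes rose and 471 fell as deposited, 272 and 147 with columns divided by their medians, and 246 and 206 with quantile normalization. The calls of Syt2, Syt3 and Syt5 were kept under both. On the log2 scale the differences of Syt2, Syt3, Syt5 and Syt11 were 5.07, 1.26, -3.76 and 0.09, while the median probe differed by -1.07. When the 10th percentile of all values, 20.4%, was set as a floor, Syt2 and Syt5 differed by 2.29 and -2.29, the most that floor allows, so their size rests on values below it. The means of Syt2, Syt3 and Syt5 were each over 50 points apart, so for these 3 members both experiments moved the same way.

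**Figure D1:**
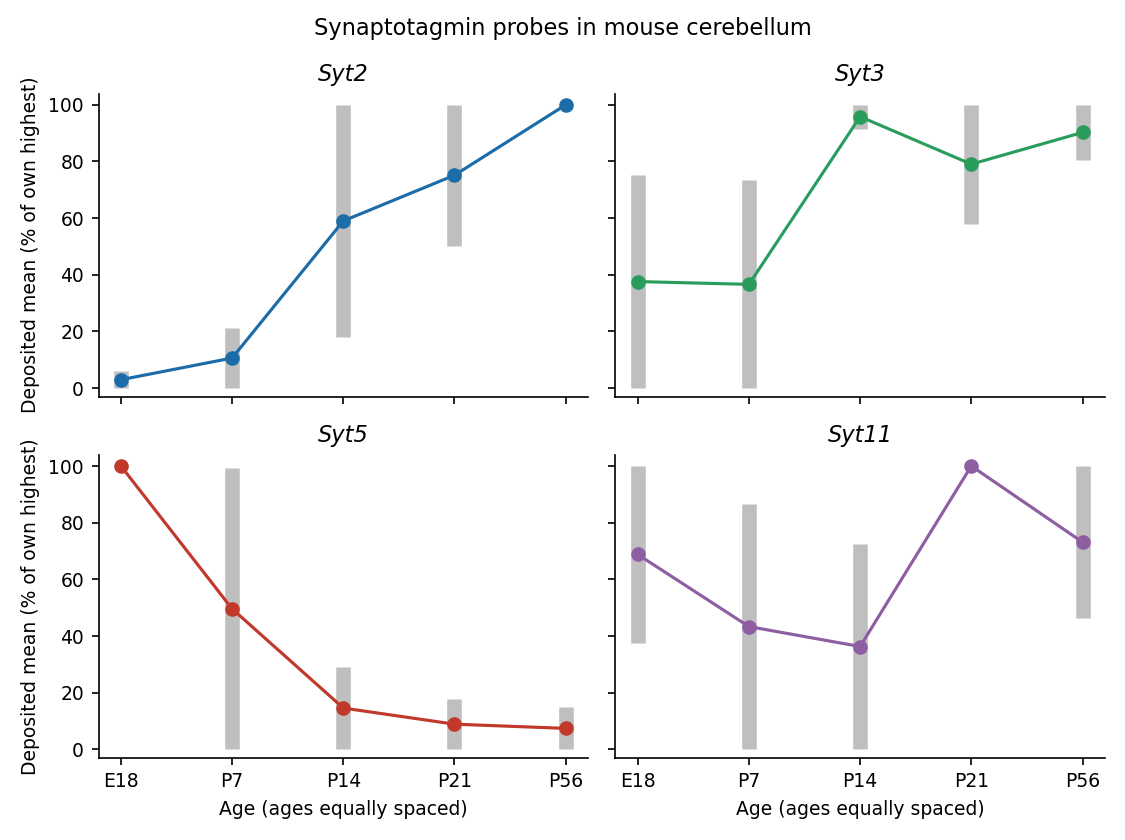
Deposited mean of each synaptotagmin probe (percent of its own highest age, y axis) at the 5 ages (x axis, equally spaced); grey bars span the values that either of the 2 averaged experiments could have had if each lies between 0 and 100%. Syt2 climbs from 2.98% to 100%, Syt5 descends from 100% to 7.39%, Syt3 steps up between P7 and P14, and Syt11 has its lowest value, 36.3%, at P14 and its highest at P21.

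Syt2, the fast release sensor, stood at 2.98% at E18, 10.6% at P7, 59.0% at P14, 75.2% at P21 and 100% at P56. It was higher at each age than at the one before, as were 7.36% of all probes at every step. Its rise from E18 to P56 was the 11th largest among the 897 probes. On the log2 scale most of it came early: 36.2% of the change fell between E18 and P7 and 48.8% between P7 and P14. Of 97.0 points gained in all, 7.7 came by P7 and 41.0 after P14. In each of the 2 experiments the value lay between 0 and 5.96% at E18 and at 100% at P56, so each rose at least 16.8-fold if the low percentages are taken as deposited. The largest step, from P7 to P14, covered 48.4 points, which does not fix its direction in each experiment. The rise of 3.57-fold from E18 to P7 covered 7.7 points, became 0.62 on the log2 scale in place of 1.83 with quantile normalization, and was 0.00 with that floor, since both values lie under it.

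Syt5, the calcium-binding form of synaptic and dense-core vesicles, ran the other way. It stood at 100% at E18, 49.6% at P7, 14.6% at P14, 8.88% at P21 and 7.39% at P56, and so was lower at each age than at the one before, as were 12.7% of all probes. With quantile normalization it went up from P14 to P21, by 0.45 in place of -0.71 on the log2 scale. Its fall from E18 to P56 was the 33rd largest. Between E18 and P7 26.9% of the log2 change took place, between P7 and P14 47.0% and between P14 and P21 19.0%. In points the largest drop was that from E18 to P7, 50.4 of 92.6. On the reading of the scale given above, the value in each experiment lay at 100% at E18 and between 0 and 14.8% at P56. Each then fell at least 6.77-fold if the low percentages are taken as deposited. From P7 to P14 its mean dropped by 35.0 points, which leaves the direction in each experiment unfixed. From E18 to P7 the fall was 2.02-fold over 50.4 points, just past both limits, so both experiments went down, each by at least 1.01-fold. With columns divided by their medians it was -0.98 on the log2 scale and no longer passed. A pseudocount of 1% also took it below 2-fold.

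Syt3, the high-affinity calcium-binding form of the plasma membrane, changed in 1 step. It stood at 37.6% at E18 and 36.6% at P7, then at 95.8% at P14, 79.1% at P21 and 90.3% at P56. The means at both ages up to P7 were low and those at the 3 ages from P14 on were high, although the values open to a single experiment, up to 75.2% at E18 and down to 58.1% at P21, overlap. Each experiment lay between 91.6% and 100% at P14 and at most at 73.3% at P7, so each rose at least 1.25-fold at this step. Because its highest mean is under 100%, the 2 experiments did not have their highest value at the same age, on the reading of the scale given above. As deposited, the fall of the mean from P14 to P21 (1.21-fold) and its return by P56 (1.14-fold) were both within 2-fold. With columns divided by their medians the highest age was P56 in place of P14, and the difference from P14 to P21 was 0.12 in place of -0.28 on the log2 scale.

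Syt11, the form that does not bind calcium, dipped and recovered. It stood at 68.8% at E18, 43.3% at P7, 36.3% at P14, 100% at P21 and 73.1% at P56. The differences from E18 to P7 (1.59-fold), from P7 to P14 (1.19-fold) and from P21 to P56 (1.37-fold) were within 2-fold, and the means at E18 and P14 were 32.5 points apart, which leaves the direction in each experiment unknown. From P14 to P21 it rose 2.76-fold, the 7th largest rise at this step. The value lay at 100% at P21 in both experiments and at most at 72.6% at P14, so each rose at least 1.38-fold. A profile lowest at P14 and highest at P21, a class formed after its values were seen, was found in 6 of the 897 probes, with Gh, Npy, Xbp1 and Ywhaq among them. Its difference of 0.09 between E18 and P56 became 1.10 with columns divided by their medians, a rise past 2-fold; that scaling moves the median of all probes by 1.01. It also turned the difference from P7 to P14 from -0.26 to 0.32, so whether P7 or P14 was lowest depends on the scale.

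Step by step, all 2-fold changes of Syt2, Syt3 and Syt5 between neighbouring ages lay between E18 and P14. Whether any transcript took the place of another cannot be told, since levels are not comparable between probes. From E18 to P7 1 of 4 members rose (Syt2) and 1 fell (Syt5), where 5.80% of all probes rose and 2.79% fell. That is 52 and 25 probes, against 54 and 21 with columns divided by their medians and 44 and 59 with quantile normalization. Neither member call was kept under both scalings. Syt2 differed by 0.62 on the log2 scale with quantile normalization and Syt5 by -0.98 with columns divided by their medians. From P7 to P14 2 members rose, Syt2 by 5.55-fold and Syt3 by 2.62-fold, and Syt5 fell 3.40-fold, where 14.4% of all probes rose and 24.7% fell. These are 129 and 222 probes, against 238 and 105 with columns divided by their medians and 224 and 164 with quantile normalization. From P14 to P21 Syt11 alone of the 4 rose and 0 fell, where 3.23% rose and 13.2% fell, or 29 and 118 probes, against 61 and 51 or 57 and 40 with those scalings. Syt2 went up 1.27-fold and Syt5 went down 1.64-fold, both within the limit. From P21 to P56 0 of the 4 passed 2-fold in either direction, where 2.68% rose and 2.23% fell. The comparisons share columns with their neighbours, so they are not independent of one another.

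**Figure D2:**
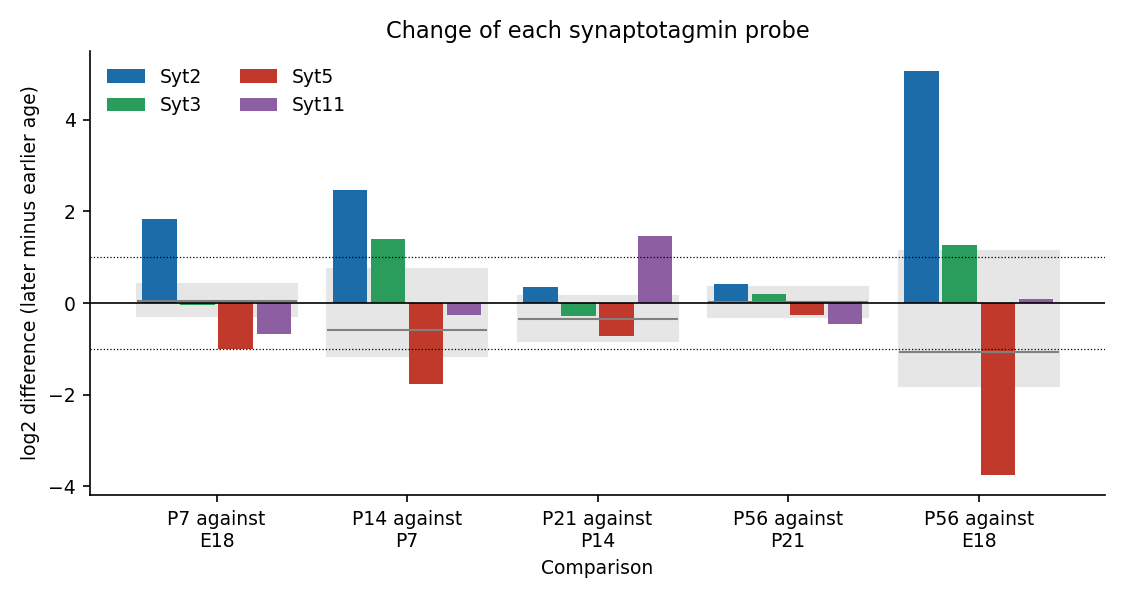
Difference on the log2 scale (y axis) of each synaptotagmin probe for the 4 steps between neighbouring ages and for P56 against E18 (x axis); grey boxes span the 20th to the 80th percentile of all 897 probes, the grey line is their median and dotted lines mark 2-fold. Syt2 and Syt5 have opposite signs at every step as deposited (with quantile normalization Syt5 turns to 0.45 at P21 against P14), and the bar of Syt11 at P21 against P14, 1.46, lies above the box.

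The age at which each gene passed 50% of its own highest value is known only to the interval between neighbouring sampled ages. Syt5 was above it at E18 and just below it at P7, at 49.6%, when Syt2 stood at 10.6% and Syt3 at 38.2% of its highest age. At P7 a single experiment could hold Syt5 anywhere between 0 and 99.2%, so an earlier passing of Syt5 than of Syt2 and Syt3 is not established. Syt2 and Syt3 were both first above it at P14, at 59.0% and 100%, when Syt5 had reached 14.6%. At P7 no member stood above 50% of its own highest age, and Syt11, at 43.3% then and 36.3% at P14, passed it again at P21. The pair furthest apart was Syt2 and Syt5, which differed by a mean of 67.9 points over the 5 ages, and the closest was Syt2 and Syt3, at 23.6 points.

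Markers of cerebellar cell types moved over the same ages, and their part in these changes was not tested. The shares of all probes that rose and fell from E18 to P56, 22.6% and 52.5%, are the background for their counts. Of 15 granule cell markers 8 were found, of which 6 rose and 1 fell from E18 to P56, with a mean of 30.5% at P7 and 74.9% at P14. Of 16 Purkinje cell markers 6 were found, all of which rose, with means of 30.3% and 75.0%. They were Pcp2, Calb1, Pvalb, Atp2a3, Nptx1 and Gad1, and whether each is confined to Purkinje cells was not tested. The 6 of 14 oligodendrocyte and myelin markers found, 5 risen and 1 fallen, had means of 27.6% and 58.9%, and the 6 of 14 markers of astrocytes and Bergmann glia found, all risen, had means of 43.8% and 50.4%. Between these ages Syt2 and Syt3 rose and Syt5 fell. The mean of astrocytes and Bergmann glia stood at 11.9% at E18, so it moved more from E18 to P7 than from P7 to P14. This was not shared by all 6 markers. Gfap went from 8.17% at E18 to 100% at P7 and Aqp4 from 11.3% to 98.9%, and both were lower at P14. Ntsr2 also moved more before P7. S100b, Atp1b2 and Gjb6 moved more from P7 to P14, from 19.6% to 62.9%, 13.5% to 27.9% and 17.1% to 49.7%. Among markers of other tissue, the 7 of 10 meningeal and connective tissue markers found had a mean of 93.5% at E18 and 33.0% at P56, with 6 fallen. The 4 of 9 vessel markers found had means of 83.2% and 40.7%, with 3 fallen. The 2 of 6 choroid plexus markers found had means of 100% and 45.3%, with 1 fallen (Igfbp2) and Ttr within 2-fold. At P7 and P14 the means were 70.9% and 32.1% for meningeal, 81.4% and 49.0% for vessel and 63.8% and 20.1% for choroid plexus markers. As background for all these means, that of all 773 named genes was 71.8% at E18, 72.5% at P7, 55.8% at P14 and 49.6% at P56. Both microglial markers found of 11 had means of 55.1% and 74.4%, with 1 risen. Of 14 markers of forebrain or brainstem neurons 4 were found, with means of 55.2% and 66.2%: Sst, the somatostatin gene, fell, Penk, the proenkephalin gene, rose, and Npy and Neurod2 stayed within 2-fold. Presence of a cell type at an age cannot be read from these values. The lowest value of the whole series is 0.01%, and signal over background is not known.

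The probes with the profiles closest to each member were found by the mean absolute difference over the 5 ages, after each probe was scaled to 100% at its own highest age; all share the same 5 columns. Closest to Syt2 was Sowaha, 0.814 points away, against a median of 54.0 points over the other 786 single-symbol probes. Next came Tiam1, which encodes an activator of the small GTPase Rac, at 4.62 points, the potassium channel genes Kcna1 and Kcnj9 at 5.08 and 5.94 points, and Pip5k1b, a phosphoinositide kinase gene, at 6.27 points. All 5 were highest at P56 as Syt2 was, which follows largely from the way they were chosen. Closest to Syt5 were a probe of Ebf3, a transcription factor gene, at 1.09 points, the imprinted gene Mest at 1.88 points, Sst at 2.12 points, another probe of Ebf3 at 2.68 points and the collagen gene Col26a1 at 2.94 points. Sst stood at 100% at E18, 48.0% at P7 and 10.2% at P14.

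Closest to Syt3 were Frmd6 at 2.99 points, the metallothionein gene Mt2 at 3.14 points, the actin-binding protein gene Ablim1 at 3.90 points, Ppp3ca, which encodes the catalytic subunit of calcineurin, at 4.34 points, and the G protein subunit gene Gnb5 at 4.78 points. Syt3 had the most probes within 10 points, 54, against 28 for Syt5, 20 for Syt2 and 3 for Syt11. Those 3 were Prkar1b, a regulatory subunit gene of protein kinase A, at 5.18 points, Xbp1, a transcription factor gene of the unfolded protein response, at 6.57 points, and Npy, the neuropeptide Y gene, at 8.74 points. Rab3a, which encodes a small GTPase of synaptic vesicles, followed at 11.7 points and Tubb4a, a tubulin gene, at 12.0 points. Rab3a stood at 78.3% at E18, 38.5% at P7, 44.7% at P14, 90.0% at P21 and 89.5% at P56.

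**Figure D3:**
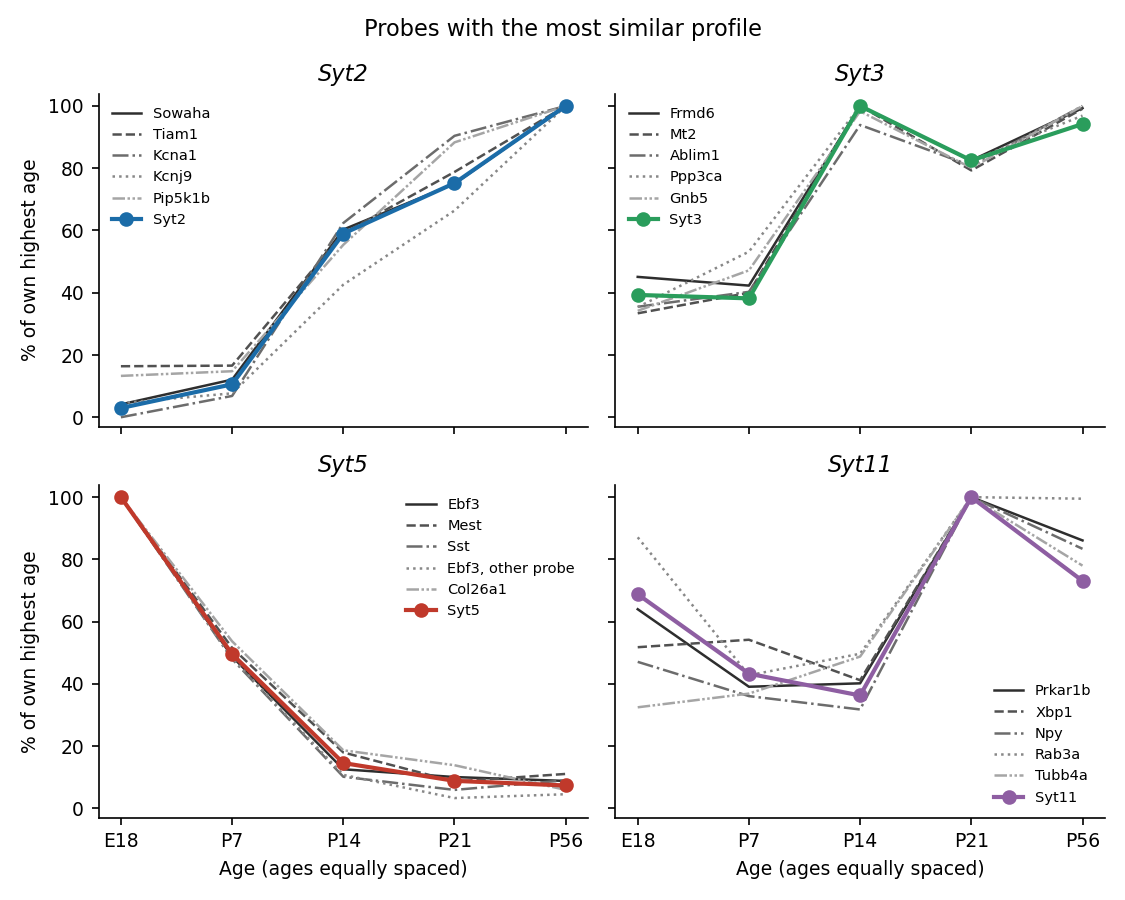
Percent of the own highest age (y axis) at the 5 ages (x axis, equally spaced) for each synaptotagmin probe (coloured, points) and the 5 single-symbol probes nearest to it (grey lines). The lines lie close to Syt2, Syt3 and Syt5 and farther from Syt11, whose neighbour Tubb4a is 12.0 points away on average.

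The proteins that synaptotagmins work with were taken from lists of release genes. Of 38 SNARE fusion genes 6 were found, and 4 of them rose from E18 to P56 and 1 fell, with a median log2 difference of 1.59; of all 773 named genes 22.0% rose and 52.8% fell, and their median was -1.07, a background that the scale between columns moves as given above. Dividing columns by their medians gave 5 SNARE genes higher and 1 lower, and a median of 2.60. Snap25, a SNARE of the plasma membrane, stood at 18.8% at E18, 27.5% at P7, 73.8% at P14, 74.3% at P21 and 100% at P56. This was a rise of 5.32-fold. Nsf, the ATPase that takes SNARE complexes apart, rose 3.69-fold, and Napb, the gene of its adaptor beta-SNAP, rose 3.44-fold. Stx1a, which encodes the syntaxin that pairs with SNAP-25 in the fusion complex, was highest at E18 as Syt5 was. It went from 100% at E18 through 59.3% at P7 and 33.2% at P14 to 0.600% at P21, and was higher again at P56, at 3.66%. Vamp2, the vesicle SNARE gene, was singled out after its values were seen: it stood at 37.9%, 17.0%, 42.5%, 100% and 69.9% from E18 to P56, highest at P21 as Syt11 was.

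Cplx1, which encodes complexin, the clamp that works with calcium-bound synaptotagmin at the SNARE complex, was the single gene found of 30 other calcium-triggered release genes. It rose 4.16-fold from E18 to P56, standing at 22.5%, 33.2%, 73.2%, 95.6% and 93.8% at the 5 ages in turn. Of 66 vesicle protein and endocytosis genes 11 were found, of which 7 rose and 1 fell, with a median of 1.24. Pacsin1, an endocytic adaptor gene of nerve terminals, rose 7.08-fold, Ppfia4, a liprin gene, 4.11-fold, and Dnm1, the neuronal dynamin gene, 3.42-fold. Sh3gl3, an endophilin gene, fell 3.38-fold, a fall that no longer passed 2-fold with columns divided by their medians or with quantile normalization. Of 16 presynaptic calcium channel genes 0 were matched. Among all these genes and the 4 synaptotagmins, the rise of Syt2 was the largest by fold and those of Stx1a and Syt5 were the largest falls.

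**Figure D4:**
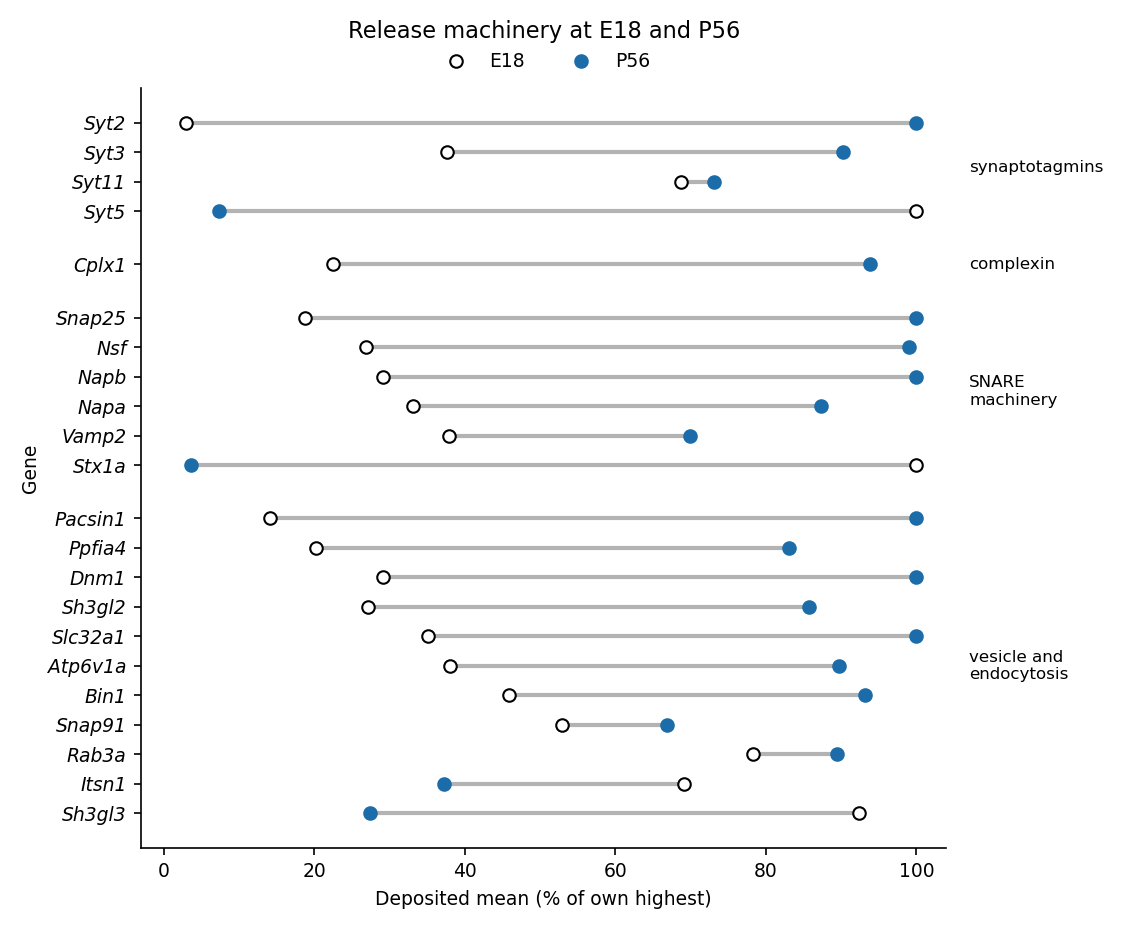
Deposited mean (percent of the own highest age, x axis) at E18 (open points) and P56 (filled points) for the 4 synaptotagmins and each release gene found (y axis, grouped by list). Syt5 and Stx1a start at 100% and end under 10%, while Syt2 has the lowest value at E18, 2.98%.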

How the data were processed

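RNA of whole mouse cerebellum was measured on arrays, with 1 deposited column for each of 5 ages. Per the labels a column averages the signal of 2 array experiments; no source read here gives the scanner, the background correction, the normalization or the choice of probes. The deposited values were taken to be percent of each probe's highest age, a scale that the authors do not state: all 4485 values lie between 0.01 and 100, and 420 probes stand at exactly 100 at 1 age and 0 at more than 1. Median values fell from 84.5% at E18 to 42.0% at P56.

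Symbols are those of GEO's annotation of the array and may be outdated; 16 probes with several symbols and 94 with none were not named. Differences are of log2 percent. The named genes were the members, the 4 most changed SNARE and vesicle genes and the 5 nearest probes per member. Every gene found of the lists of other calcium-triggered release genes, other synaptotagmins and calcium channels was named too. Some cell type markers were named as well. The members, lists and rules were chosen with earlier results of these data known. The calculation was tested on simulated data. Alternatives were 2 column scalings, 3 treatments of low values, thresholds of 1.5-fold and 3-fold, and correlation as the measure of likeness. Python 3.11.15, numpy 2.4.6 and pandas 2.3.3 were used.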

Additional observations from a re-analysis of the deposited data

How the results depend on the processing

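Each of the 20 differences of a member (4 genes in 5 comparisons) was recomputed under 7 alternatives, and none took the opposite sign while past a threshold. For P56 against E18 the counts of 2 risen and 1 fallen changed in 2 cases. With a 3-fold threshold 1 rose, and with columns divided by their medians 3 rose, Syt11 being the one added, which is within 1.5 times the count. From E18 to P7 the number of members risen was 0 in place of 1 with quantile normalization and with a floor at the 10th percentile. The number fallen was 0 in place of 1 with columns divided by their medians, with a pseudocount of 1% and with a 3-fold threshold, and 2 with a 1.5-fold threshold. With a 3-fold threshold 1 member rose in place of 2 from P7 to P14, and 0 in place of 1 from P14 to P21; with a 1.5-fold threshold 1 fell in place of 0 at the latter step. The number of vesicle and endocytosis genes fallen was 0 in place of 1 with both column scalings. By correlation of log2 values, 2 of the 5 probes named for Syt2 were among its top 5, 1 for Syt3, 0 for Syt5 and 3 for Syt11. The cause of these changes was not tested, apart from the thresholds and the floor, which change calls by construction. No paired analysis was possible because each age has 1 column and no replicate numbers. Signal over background is not known for any probe, so low percentages such as that of Syt2 at E18 have unknown precision.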
